A study of Mus musculus with 4 samples.

Results

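The genes described here encode nuclear receptors, and the question was where tagged MafG sat around them in mouse liver. The set held 44 receptor genes, listed by name, out of 21887 protein-coding genes of the RefSeq annotation (GRCm38.p6, the assembly of mm10). FXR and SHP were not among them. Chromatin immunoprecipitation with sequencing (ChIP-seq) was done on livers of C57BL6/J mice. There were 2 libraries from livers treated with MafG carrying the BLRP peptide tag (treatment label Ad BLRP MAFG) and 2 from control livers (Ad BLRP Control). All 4 were precipitated with an Avi-tag antibody, so the libraries read the introduced tagged protein and none reads untagged MafG. The labels give no age or sex. The values are those of 1 deposited list of 68763 peaks, called on 20406492 BLRP-MafG tags over control tags, with no value per library. No SD can be given and no difference between animals can be tested. Intervals in parentheses are at 95% and cover counting alone. After a peak height they are exact Poisson intervals of its tags, after a density exact Poisson intervals of the number of peaks, and after a multiple of the control exact conditional binomial intervals. The liver holds several cell types, and a peak does not show in which of them the factor was bound.

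Nuclear receptors are transcription factors that read small lipophilic ligands, or act without a known ligand, through a conserved DNA-binding domain with zinc fingers. Many of those that sense thyroid hormone, retinoids, fatty acids, oxysterols or xenobiotics bind DNA as heterodimers with a retinoid X receptor. In liver they govern bile acid, lipid, glucose and drug metabolism. MafG belongs to the small MAF proteins, which bind DNA through a basic leucine zipper, dimerize with CNC family factors such as NRF2, and have no transactivation domain of their own.

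A receptor was counted as having a peak when the midpoint of a listed peak lay inside the gene or within 10 kb outside either end. The height of a peak is its normalized tag count, the BLRP-MafG tags scaled by the authors to 10000000 tags. The median of all listed peaks was 12.3. The peaks are 201 bases long and some hold far more tags than that, so tags share positions, and the exact intervals do not allow for such repeats. The genes were divided by general knowledge of tissue expression, since the series holds no expression values. The liver class held 23 receptors known in liver and the other class 21 known mainly from other tissues or as inducible genes. For 11 of the 44 this assignment is borderline. In the liver class these are Thra, Ppard and Nr2f2. In the other class they are Rarb, Pparg, Vdr, Hnf4g, Nr2f1, Esrrg, Nr3c2 and Nr4a1.

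Few of the peaks lay at promoters. Of 40 receptors with a listed start in the RefSeq promoter table, 9 (22.5%) had a peak midpoint within 1 kb of a start, near the 21.7% of all protein-coding genes in that table. They were 4 of 21 in the liver class (Nr1d1, Nr1h3, Nr1i3 and Esr1) and 5 of 19 in the other class (Rxrg, Vdr, Pparg, Nr6a1 and Esrrb). Thra, Nr3c1, Hnf4g and Nr5a1 are not in the table. The promoters of 4 of the 9 genes are shown because a peak covers part or all of them. Nr1d1 and Rxrg carried the highest peaks at a listed start, and Nr1h3 and Vdr the peaks closest to one. Each sequence runs from 250 bases before the start to 50 after it, on the gene's own strand (RefSeq, GRCm38.p6). Capitals mark the bases inside the deposited peak. The windows are chr11:98775328-98775627 (minus strand) for Nr1d1, chr1:167618015-167618314 (plus strand) for Rxrg, chr2:91194986-91195285 (minus strand) for Nr1h3 and chr15:97908247-97908546 (minus strand) for Vdr.
Nr1d1: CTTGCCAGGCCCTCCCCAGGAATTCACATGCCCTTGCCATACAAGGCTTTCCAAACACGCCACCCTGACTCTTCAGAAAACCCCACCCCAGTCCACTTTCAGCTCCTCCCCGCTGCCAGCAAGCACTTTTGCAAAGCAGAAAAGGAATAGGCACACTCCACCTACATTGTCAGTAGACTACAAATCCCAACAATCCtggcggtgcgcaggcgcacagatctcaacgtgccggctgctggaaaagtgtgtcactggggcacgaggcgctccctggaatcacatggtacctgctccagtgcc
Rxrg: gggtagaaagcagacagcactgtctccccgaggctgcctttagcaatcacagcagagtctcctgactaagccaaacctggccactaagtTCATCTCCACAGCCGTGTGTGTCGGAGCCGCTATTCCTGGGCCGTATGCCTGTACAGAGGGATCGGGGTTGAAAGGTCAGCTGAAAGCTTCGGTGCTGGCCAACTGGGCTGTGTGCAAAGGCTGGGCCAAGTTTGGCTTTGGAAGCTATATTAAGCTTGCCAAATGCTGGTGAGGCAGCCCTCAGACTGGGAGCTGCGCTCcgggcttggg
Nr1h3: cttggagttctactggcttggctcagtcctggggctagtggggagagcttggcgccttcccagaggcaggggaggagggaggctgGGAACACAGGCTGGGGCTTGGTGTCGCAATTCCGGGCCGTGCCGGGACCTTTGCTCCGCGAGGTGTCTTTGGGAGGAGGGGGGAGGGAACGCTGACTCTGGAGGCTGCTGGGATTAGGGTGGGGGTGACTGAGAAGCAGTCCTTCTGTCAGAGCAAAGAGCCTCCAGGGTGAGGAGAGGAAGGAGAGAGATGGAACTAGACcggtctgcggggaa
Vdr: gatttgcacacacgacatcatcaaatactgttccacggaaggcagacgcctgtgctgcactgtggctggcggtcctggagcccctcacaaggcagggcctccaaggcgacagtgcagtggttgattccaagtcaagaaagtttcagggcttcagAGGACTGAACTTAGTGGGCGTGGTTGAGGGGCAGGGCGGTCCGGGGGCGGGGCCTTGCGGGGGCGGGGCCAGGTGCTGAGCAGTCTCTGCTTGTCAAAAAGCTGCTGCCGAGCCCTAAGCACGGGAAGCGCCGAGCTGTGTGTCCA

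At Nr1d1, the gene of the haem-binding clock repressor REV-ERBα, the peak at chr11:98775432-98775632 had a height of 42.1 (33.7 to 52.0) with 4 control tags, and its midpoint lay 155 bp before the start. At Rxrg the peak at chr1:167618104-167618304 had a height of 30.9 (23.7 to 39.5) with 0 control tags, centred 61 bp before one of its 2 listed starts. The peak at Nr1h3, the gene of the oxysterol receptor LXRα, was lower, at 11.3 (7.14 to 16.9), and covered both of its listed starts. That at Vdr, the vitamin D receptor gene, reached only 6.37 (3.39 to 10.9), 4 bp from the start. The promoters were searched on both strands for TGCTGA, an arm of the MAF recognition element, for TGACNNNGC, the core of the antioxidant response element, for TGACTCA and for AGGTCA, the core of nuclear receptor sites. The letters of these motifs can overlap one another. The Vdr promoter held TGCTGA inside its peak, 23 bases before the start. The Rxrg promoter held AGGTCA inside the peak, 88 bases before the start, and TGACNNNGC outside it, 188 bases before. None of the 4 motifs was in the Nr1d1 and Nr1h3 windows. Of 21263 promoters of protein-coding genes, 18.1% held TGCTGA, 13.0% TGACNNNGC, 4.66% TGACTCA and 14.7% AGGTCA.

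Most receptor genes had a peak, and the tall ones were spread over receptors of many roles. Of the 44, 40 (90.9%) had at least 1 peak, against 74.5% of all protein-coding genes. A peak with a deposited fold over control of 20 or more stood at 38 of 44 (86.4%), against 62.4% of all genes. A peak of height 50 or more stood at 14 of 44 (31.8%), against 17.1%. The median of the highest peak per gene, with genes without a peak at 0, was 31.9 for the receptors and 13.7 for all genes. These shares take no account of gene length, and they are not read as particular to the receptors. The median length of the receptor genes was 48.4 kb, against 17.2 kb for all genes. Whether length accounts for the higher shares was not tested.

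Split by gene length, the share of receptors with a peak was nearer to the background in each class. Under 10 kb, 4 of 7 receptors had a peak, against 54.2% of all genes of that length. From 10 to 30 kb the count was 9 of 10, against 77.9%. All 14 receptors from 30 to 100 kb had one, against 90.7%, as did all 7 from 100 to 300 kb, against 97.2%. The 6 receptors of 300 kb or more had one, as did 100% of such genes. The median highest peak of receptors under 10 kb was 9.80, against 6.37 for all genes of that length, and from 10 to 30 kb it was lower than that of all genes, at 12.3 against 13.7. From 30 to 100 kb it was 37.5, against 21.6. From 100 to 300 kb it was 49.5, against 40.2, and at 300 kb or more 75.5, against 74. A peak of 50 or more stood at 0 of 7 receptors under 10 kb, against 6.47% of all genes of that length, and at 0 of 10 from 10 to 30 kb, against 13.7%. It stood at 6 of 14 (42.9%) from 30 to 100 kb, against 23.2%, and at 3 of 7 (42.9%) from 100 to 300 kb, against 41.5%. At 300 kb or more it stood at 5 of 6 (83.3%), against 69.8%.

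Counted per length, peaks were more frequent along receptors than along all genes in each length class. The density was 4.86 per 100 kb (2.22 to 9.22) in receptors under 10 kb, against 3.74 for all genes of that length, and 5.06 (3.09 to 7.82) from 10 to 30 kb, against 4.34. From 30 to 100 kb it was 4.74 (3.54 to 6.22), against 3.90, and from 100 to 300 kb 3.94 (2.90 to 5.24), against 3.31. At 300 kb or more it was 4.42 (3.73 to 5.21), against 2.33. Except in the longest class, the receptors' interval held the value of all genes. These intervals treat peaks as independent, and no difference was tested.

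**Figure D1:**
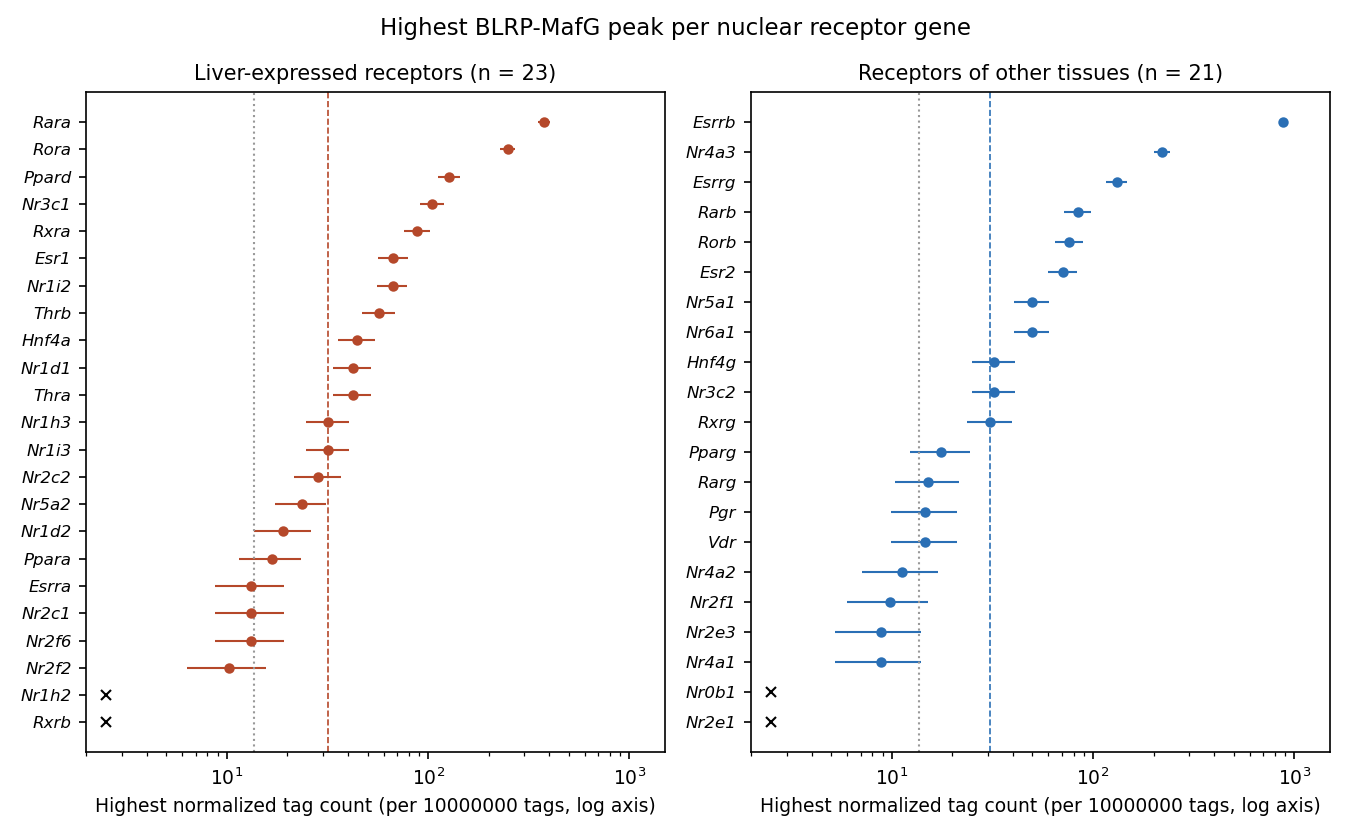
Highest normalized tag count per gene (per 10000000 tags, log axis) for the 23 liver-expressed receptors on the left and the 21 receptors of other tissues on the right. Points are values, bars exact 95% Poisson intervals, crosses genes without a listed peak; the dashed line is the class median (31.9 on the left, 30.9 on the right) and the dotted line the median of all protein-coding genes (13.7). Esrrb stands alone at 881.1, and Rara, Rora and Nr4a3 are the only others above 200.

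Liver-expressed receptors and receptors of other tissues differed little in how many had a peak. The counts were 21 of 23 (91.3%) in the liver class and 19 of 21 (90.5%) in the other class. The median highest peak was 31.9 in the liver class and 30.9 in the other class, with quartiles of 15.0 and 66.9 in the liver class and of 11.3 and 70.6 in the other class. Peaks of 50 or more stood at 8 of 23 liver class genes and at 6 of 21 other class genes. The median of the other class moved by over 1.5 times under several settings. With a fold over control of at least 20 the medians were 29.9 in the liver class and 15.7 in the other class, and with a flank of 1 kb they were 27.4 in the liver class and 15.7 in the other class. With a flank of 5 kb, or with each peak given only to its nearest gene, the liver class was at 31.9 and the other class at 17.6. In windows under 150 kb the liver class was at 30.2 and the other class at 14.7, and within 10 kb of gene ends they were at 16.7 (liver) and 11.3 (other). With a flank of 50 kb the liver class moved to 66.6 and the other class to 41.7. With a lower limit of the ratio to control above 10 the liver class was at 28.4 and the other class at 0. The cumulative curves of the 2 classes cross more than once above 30.

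**Figure D2:**
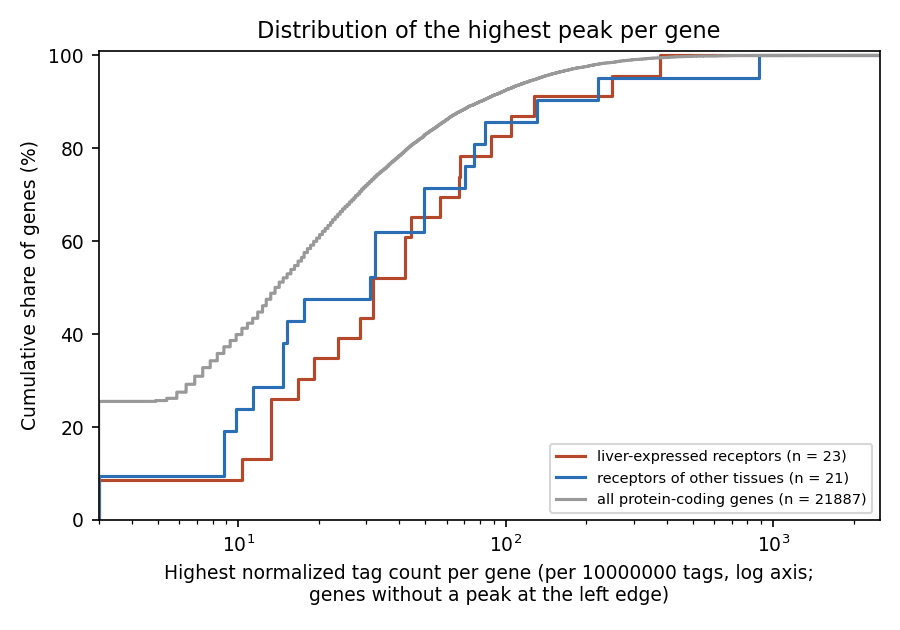
Cumulative share of genes (%) by the highest normalized tag count per gene (log axis), for 23 liver-expressed receptors, 21 receptors of other tissues and all 21887 protein-coding genes. Genes without a peak are at the left edge; both receptor curves lie right of the curve of all genes at the median (31.9 and 30.9 against 13.7).

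Peaks were somewhat denser along liver-expressed receptors. Their windows, 2.85 Mb in sum, held 146 peaks (145 of them distinct), or 5.12 per 100 kb (4.32 to 6.02). The windows of the other class, 3.25 Mb in sum, held 125 (124 distinct), or 3.85 per 100 kb (3.20 to 4.58). All protein-coding windows held 3.47 per 100 kb. For these densities a peak in overlapping windows was counted once in each window. The intervals of the 2 classes overlap, they treat peaks as independent, and the difference was not tested. Per gene, the median was 5.61 per 100 kb in the liver class and 2.99 in the other class. Without Rora, the liver gene with the most peaks, its class stood at 5.05, and without Esrrg the other class stood at 3.39. With each peak given only to its nearest gene, the densities were 4.59 in the liver class and 3.75 in the other class. In genes of 300 kb or more they were 4.59 (3.59 to 5.78) in the liver class and 4.26 (3.33 to 5.38) in the other class. In the shorter length classes the liver class also had the higher density. Among peaks with a deposited fold of 10 or more over the surrounding 10 kb, the densities were 2.66 in the liver class and 2.65 in the other class. The median deposited fold over the surroundings was 10.5 in liver class windows, 13.4 in the other class and 13.2 in all protein-coding windows.

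The peaks themselves were of ordinary height. The receptor windows held 269 distinct peaks, with a median of 11.8 (quartiles 8.33 and 21.6), against 12.3 (quartiles 7.84 and 23) for the 42421 peaks in all protein-coding windows. Of the 269, 22 (8.18%) reached 50, against 9.69%. The control had 0 tags in 108 of them (40.1%), against 43.5%, and at most 7. Inside some protein-coding gene lay 89.6%, against 78.1%, and within 1 kb of any listed start lay 5.20%, against 8.97%. Another protein-coding gene had 39 of the 269 in its own window, and 230 were in the window of a single gene. The highest peak lay inside the gene in 26 of the 40 receptors with a peak. In 6 receptors it lay nearer to another gene: Nr1i3, Nr2c2, Nr2f6, Thra, Nr4a2 and Nr5a1.

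Peak number followed gene length. The 6 receptors of 300 kb or more (Rora, Rarb, Esrrg, Esr1, Thrb and Nr3c2) held 143 of the 271 gene-peak pairs, or 52.8%. Across the 44 receptors Spearman's rho between peak number and window length was 0.81, and 0.67 between the highest peak and window length. Across all protein-coding genes these were 0.61 and 0.48. Genes are not independent replicates, and these values are descriptions. Rora held 40 peaks, more than 98.9% of genes of 300 kb or more, and Esrrg 36, more than 97.8% of them. Rarb held 20, Thrb 18, Nr3c2 15 and Esr1 14. At the short end, Nr1i3, 4.91 kb long, had 4 peaks in its window, more than 97.6% of genes under 10 kb, though all 4 also lay in windows of neighbouring genes.

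**Figure D3:**
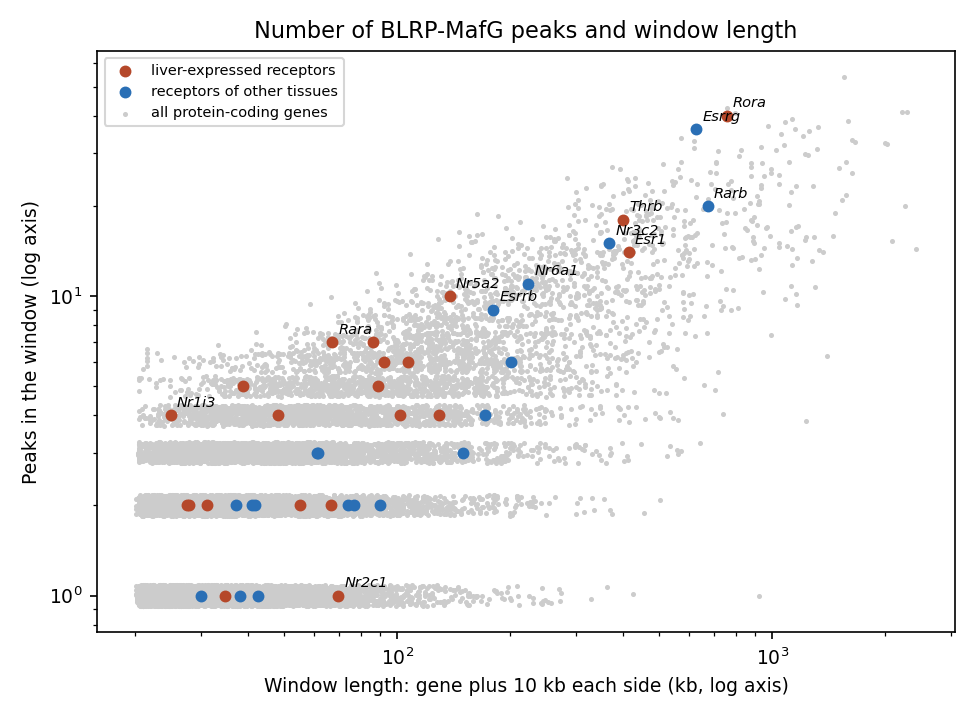
Number of peaks in the window (log axis) against window length, gene plus 10 kb each side (kb, log axis), for genes with at least 1 peak. Grey points are all protein-coding genes, spread slightly in height so that equal counts can be seen; Rora (40 peaks) and Esrrg (36) lie near the upper edge of the cloud.

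The estrogen-related receptors held the tallest peak of the set. These orphan receptors control genes of energy metabolism and, for ERRβ, pluripotency. Esrrb had 9 peaks, and one at chr12:86488131-86488331, inside the gene 33397 bp from its nearer end, reached 881.1 (841 to 923). That was the sixth highest of all 68763 peaks. It held 1798 BLRP-MafG tags and 4 control tags, 379 times the control (148 to 1393) after scaling for depth. It carried 78.8% of the tags in the peaks of Esrrb and was 9.08 times the next peak there, of 97 (84.0 to 112). The list also holds a findPeaks score, which its header does not define. The header gives a maximum of 1 tag considered per bp, without stating how the score uses this setting. The score never exceeded 389, and it fell further behind the tags the taller the peak. At that Esrrb peak the score was 348, rank 11 of all peaks, and the tags were 5.17 times the score, against a median of 2.48 times over the 483 listed peaks of 500 tags or more. The highest peaks of Rara, Rora and Nr4a3 had scores of 295, 226 and 208. Because the score levels off in tall peaks, it says little about the distances between these 4. ERRβ is known mainly from other tissues, and no expression was measured here. Esrrg, with 36 peaks, reached 130.8 (116 to 148) at chr1:187956822-187957022, with 4 control tags, 56.3 times the control (21.7 to 208), and 107.3 at a second site. The short gene Esrra, whose product ERRα is widely expressed, had 2 peaks of 13.2 and 12.3. Both also lay in windows of neighbouring genes, and that of 12.3 was nearer to Prdx5. The 3 genes differ in length (606 kb, 161 kb and 11.1 kb for Esrrg, Esrrb and Esrra).

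Among thyroid and retinoic acid receptors, Rara held the second highest peak of the set. All 5 genes had a peak, near the background for genes of their lengths (77.9% from 10 to 30 kb, 90.7% from 30 to 100 kb and 100% from 300 kb). Rara encodes the retinoic acid receptor RARα. Its peak at chr11:98954952-98955152, inside the gene, reached 377.3 (351 to 405) and ranked 155th of all peaks. It held 770 BLRP-MafG tags and 1 control tag, 649.5 times the control (116 to 25688) and 217 times a floor set at 3 tags. The other 6 peaks of Rara reached 41.7 at most, and that one lay in the window of Cdc6 as well. Rarb peaked at 83.8 (71.7 to 97.3), at chr14:16898256-16898456, deep inside the gene, with 2 control tags. It also had a peak of 7.84 placed 312 bp inside one end. Rarg had 1 peak of 15.2 (10.3 to 21.6) at chr15:102234872-102235072, 34 bp inside one end. Thrb, the main thyroid hormone receptor gene of liver, held 18 peaks and reached 56.8 (47.0 to 68.2) at chr14:18024119-18024319, which is more than in 37.9% of genes of 300 kb or more. Thra had a peak of 37.2 (29.3 to 46.6) 551 bp outside one end. Its highest, of 42.1, is the one at the Nr1d1 start, since the 2 genes lie side by side and overlap at their ends.

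The ROR and REV-ERB genes encode receptors that act on the same response elements as activators and repressors of the clock. All 4 had a peak, and 3 of them are longer than 30 kb, where 90.7% or more of all genes have one. Rora reached 248.5 (227 to 271) at chr9:68957936-68958136, with 507 BLRP-MafG tags and 7 control tags, 61.1 times the control (29.4 to 153). That site lay 304632 bp from the nearer end of the gene and ranked 466th of all peaks. Another 3 peaks of Rora exceeded 50, at 71.1, 54.4 and 50.5, and the median of its 40 was 11.3. Rorb, known from brain and retina, held 6 peaks and reached 76 (64.5 to 88.9) at chr19:19089162-19089362 with 1 control tag. All 6 had a deposited fold over control of at least 20, a limit that low peaks with 0 control tags can pass. Set against a floor of 3 tags, their ratios ran from 4.78 at the peak of 8.33 to 43.6 at the highest. Beside the peak at its start, Nr1d1 had one of 29.9 (22.9 to 38.4) 8834 bp outside. Nr1d2, its paralogue, had 2 peaks of 19.1 (13.6 to 26.1) and 12.3.

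**Figure D4:**
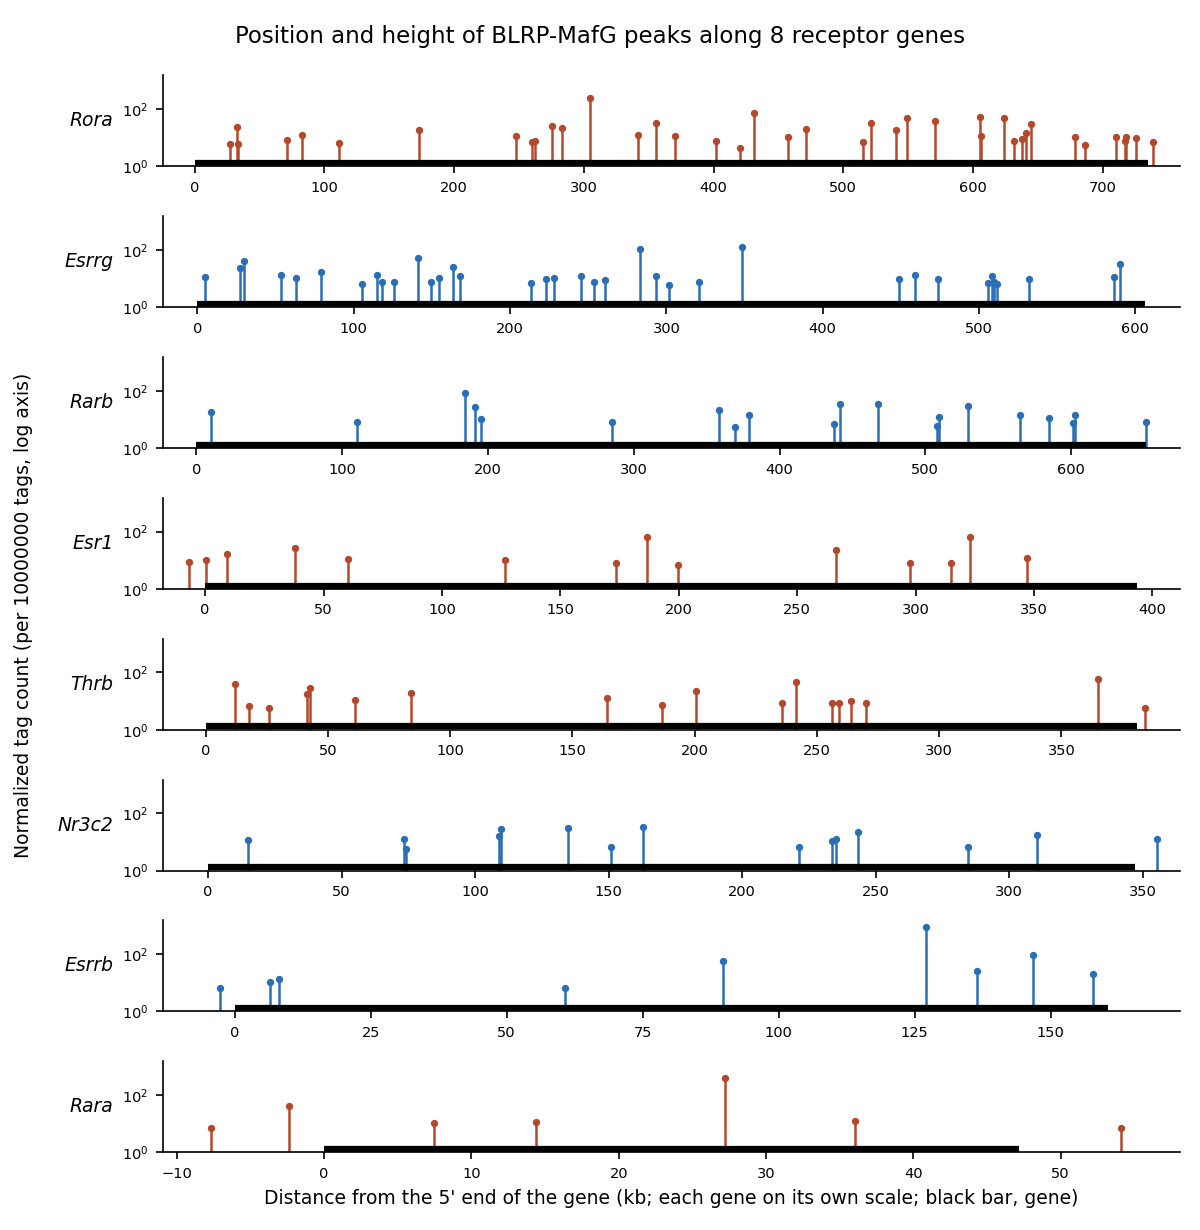
Peaks along 8 receptor genes, each on its own scale: distance from the gene's 5′ end (kb) across and normalized tag count (per 10000000 tags, log axis) upwards; the black bar is the gene, orange-brown marks the liver class and blue the other class. In Esrrb (881.1) and Rara (377.3) a single site stands far above the rest, whereas in Esr1 the highest site (67.1) is followed closely by the next (65.7).

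Of the PPAR genes, which encode receptors of fatty acids and their derivatives, Ppard had a far higher peak than Ppara or Pparg. Ppard, broadly expressed, had 5 peaks. The highest, at chr17:28236745-28236945, 4091 bp inside the gene, reached 127.4 (112 to 144) with 2 control tags, 109.7 times the control (30.1 to 910.3). That peak lay in the window of Def6 as well, though Ppard was its nearest gene. The next was 13.2. Ppara, whose product drives fatty acid oxidation in hepatocytes, had 6 peaks between 10.8 and 16.7 (11.5 to 23.3). Pparg, the adipocyte receptor, had 3, up to 17.6 (12.4 to 24.4). The intervals of Ppara and Pparg overlap, and that of Ppard lies above both.

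Among the oxysterol and xenobiotic receptor genes the tallest peak stood at Nr1i2. Nr1i2, the gene of the xenobiotic receptor PXR, had 2 peaks. One at chr16:38271805-38272005, inside the gene and 22919 bp from its listed start, reached 66.6 (55.9 to 78.8) with 0 control tags. That was 38.2 times a floor set at 3 tags, with a lower limit of the ratio to control of 30.7. The other was 5.88. Nr1i3, the gene of the xenobiotic receptor CAR, reached 31.9 (24.6 to 40.6) outside the gene at a site nearer to Tomm40l, with a peak of 16.2 inside it and one of 7.84 856 bp outside one end. Nr1h3 also reached 31.9, at chr2:91200732-91200932 inside the gene, with 1 control tag. One of its low peaks, of 7.35, lay 700 bp outside an end and nearer to Madd. Vdr had a second peak of 14.7 (9.92 to 20.99). Nr1h2, which encodes LXRβ, had none.

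Rxra, the gene of the main RXR of liver and partner of most receptors above, held 6 peaks, all inside it. The 3 highest were 88.2 (75.8 to 102) at chr2:27758456-27758656, 46.6 (37.7 to 57.0) and 36.8 (28.9 to 46.1), with 3, 2 and 2 control tags. The middle one lay 1102 bp before the second of its 2 listed starts. Rxrb had no peak. Hnf4a, whose product HNF4α maintains hepatocyte identity, had 7 peaks between 11.8 and 44.1 (35.5 to 54.2), more in number than 94.4% of genes from 30 to 100 kb. The highest lay 4416 bp outside an end. Hnf4g, better known from gut and kidney, had 4, with 32.3 (25.0 to 41.1) the highest and 6.37 (3.39 to 10.9) 73 bp outside an end. The intervals of the 2 highest HNF4 peaks overlap.

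The tallest steroid receptor peak was at Nr3c1. All 5 steroid receptor genes had a peak, and all 5 are longer than 30 kb, where 90.7% or more of all genes have one. Nr3c1, which encodes the glucocorticoid receptor, reached 104.9 (91.3 to 120) at a site 12775 bp inside the gene, with 0 control tags. That was 60.2 times a floor set at 3 tags, with a lower limit of the ratio to control of 48.5. Esr1, the estrogen receptor gene expressed in liver, reached 67.1 (56.4 to 79.4) at chr10:4798273-4798473 and 65.7 at a second site, and had a peak of 10.3 (6.37 to 15.7) 400 bp inside its start. Esr2 reached 70.6 (59.5 to 83.1) at chr12:76181335-76181535, 4176 bp outside the gene and before its start. The intervals of Esr1 and Esr2 overlap, so their heights cannot be ordered. Nr3c2, the mineralocorticoid receptor gene, had 15 peaks but none above 32.3 (25.0 to 41.1), which is higher than the highest peak of 16.2% of genes of its length class. Pgr, the progesterone receptor gene, had 2 peaks of 14.7 and 14.2, the second 269 bp outside one end.

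Among immediate early NR4A receptor genes, Nr4a3 stood apart. Its peak at chr4:48083523-48083723, 2824 bp inside the gene's end, reached 221 (201 to 242) with 0 control tags. That was 127 times a floor set at 3 tags, with a lower limit of the ratio to control of 102.7. The peak carried 89.7% of the tags in the peaks of that gene. The highest peaks of Nr4a2 and Nr4a1 were 11.3 (7.14 to 16.9) and 8.82 (5.23 to 13.9), and Nr4a1 had one of 8.33 228 bp inside an end.

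The COUP-TF, testicular receptor and tailless genes had no peak above 28.4. Of 7 genes, 6 had a peak, against 74.5% of all genes, and the group's median highest peak was 10.3. Nr2c2, which encodes TR4, reached 28.4 (21.6 to 36.7) at a site nearer to Mrps25. Nr2f6 and Nr2c1 reached 13.2 each, Nr2f2, which encodes COUP-TFII, 10.3, Nr2f1 9.80, and the photoreceptor gene Nr2e3 8.82. Their density, 2.91 per 100 kb (1.40 to 5.35), had an interval that holds the 3.47 of all genes. Except for Nr2c2 and Nr2c1 these genes are shorter than 30 kb.

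Nr5a2, the gene of LRH-1, which activates bile acid synthesis genes, held 10 peaks inside it, but none above 23.5 (17.3 to 31.2). Of genes from 100 to 300 kb, 28.3% had a lower highest peak and 82.9% had fewer peaks. Nr5a1, the steroidogenic factor of adrenal and gonads, and Nr6a1, the germ cell nuclear factor, lie next to each other on chromosome 2. They share their highest peak, of 49.5 (40.3 to 60.1) with 6 control tags, at chr2:38721619-38721819, 1650 bp outside Nr6a1 and 7177 bp outside Nr5a1. Nr6a1 held 11 peaks in all, with 11.8 at its start and 6.86 within 1 kb of it.

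No peak was listed for Nr1h2 and Rxrb in the liver class or for Nr2e1 and Nr0b1 in the other class. Because the list holds only sites above the caller's limits, weaker signal there cannot be seen. Nr1h2 (4.35 kb) had its nearest listed peak 24134 bp away, of 42.1 (33.7 to 52.0), nearest to Napsa. Rxrb (6.59 kb) had one 19105 bp away, of 30.9 (23.7 to 39.5), nearest to Col11a2, and 14 peaks within 100 kb. Nr2e1, a brain receptor, had one of 9.80 at 15275 bp. Nr0b1, which encodes the adrenal and gonadal repressor DAX1 and lies on chromosome X, had its nearest 75146 bp away, the only one within 100 kb.

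Coregulators, which receptors recruit to activate or repress genes, were listed for comparison. Of 21, 20 (95.2%) had a peak, against 74.5% of all genes. Their median highest peak was 23, against 13.7, and their density 4.70 per 100 kb (3.96 to 5.55), against 3.47. Their median gene length was 86.4 kb, and of all genes from 30 to 100 kb 90.7% had a peak, with a median highest peak of 21.6 and a density of 3.90. The highest peak was 349.9 (325 to 377) in Ppargc1b, which encodes the coactivator PGC-1β. Ppargc1b also held one of 344.5 (319.5 to 370.9). The gene with the next highest peak was the coactivator gene Ncoa2, at 185.7 (167 to 205). Ep300, the acetyltransferase gene, had no listed peak.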

How the data were processed

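The data were 1 peak list of the whole series, from 2 BLRP-MafG and 2 BLRP control liver libraries. Per the file headers, HOMER findPeaks compared 1 collection of BLRP-MafG tags (20406492 tags) with 1 of control tags, with limits of 10-fold over control (Poisson p 1e-06) and 4-fold over a local region of 10 kb. Of 142591 putative peaks 68763 were kept. Whether a collection joined both libraries is not stated. Bowtie2, HOMER and mm10 are named in the submitters' processing notes, with versions not given in the sources used here. The tag signal for BLRP-MafG was scaled by the authors to 10000000 tags, and the deposited control signal is unscaled, with 0.5 for 0 tags. The deposited folds are linear ratios, and the deposited p-values were not used. The deposited score holds whole numbers up to 389, at or below the tag count in 93.8% of peaks. Its definition is not stated in the header.

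Whole tags were recovered from the scaled signal (all within 0.102 of a whole number). The control depth, 1.72e+07 tags, was implied by the deposited folds and control tags. Ratios to control have exact conditional binomial 95% intervals; 0 control tags were set against a floor of 3 tags. Intervals and floors cover counting error only. Genes came from RefSeq GRCm38.p6 (21 placed chromosomes); all 44 receptors and 21 coregulators matched by symbol, and 40 receptors matched the promoter table. The list holds no replicates, so no test was run, and members, classes and lists were chosen with earlier results of these data known. Values were given in full for the 10 receptors with the highest peak, the 5 with most peaks, those with a peak within 1 kb of a gene end and those without a peak, and further receptors were named by role so that each is accounted for. Of the 21 coregulators, 3 are named, the highest and the one without a peak, and 1 that the same rule would name is not reported here. The assignment of peaks to genes was checked on simulated peaks. Python 3.11.15, numpy 2.4.6, pandas 2.3.3 and scipy 1.17.1 were used. Alternatives covered the peak threshold, the flank, the assignment to genes, the class lists and, added after the data were seen, the score as height.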

Additional observations from a re-analysis of the deposited data

How the results depend on the processing

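Of 14 alternative settings, any overlap and the score as height left both densities unchanged, and in the 12 that changed a density the liver class stayed above the other class. Its median highest peak exceeded that of the other class by 0.980 to 28.4 over the 14. With a fold over control of at least 20, densities fell to 3.22 per 100 kb in the liver class and 2.31 in the other class, and with a fold of at least 10 over the surroundings to 2.66 (liver) and 2.65 (other), nearly equal. Only peaks whose lower limit of the ratio to control exceeded 10 left 22 receptors with a peak, 13 in the liver class and 9 in the other class, whose median was then 0, with densities of 0.911 (liver) and 0.554 (other). Only peaks of height 23.5 or more left 26 receptors, 11 of them in the other class, with densities of 1.33 (liver) and 0.831 (other). Fewer peaks in these 4 settings follow from their construction. For the limit on the ratio to control and for height 23.5, the share of all protein-coding genes was not computed. The counts of 22 and 26 receptors therefore have no background beside them and are not read as particular to the receptors. Without the borderline receptors 11 of 13 in the other class had a peak. The windows of those 13 held 42 peaks, counted once per window, at a density of 3.75, against 5.07 in the 20 liver class receptors left. With windows under 150 kb only, 12 of 14 in the other class had a peak, at a density of 2.97. Leaving out Rora and Esrrg, chosen after seeing the data, left 20 of 22 in the liver class and 18 of 20 in the other class with a peak. The findPeaks score in place of the tag count, also chosen after seeing the data, gave medians of 28.4 (liver) and 27.4 (other) on the same scale. A single median peak rests on about 25 tags, so low peaks cannot be ordered. No paired analysis was possible because the list holds no value per library, and no library could be left out.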

Other observations

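Over all 21263 promoters of protein-coding genes, 1931 held the midpoint of a listed peak. TGCTGA was in 24.5% of these 1931, against 18.1% of all promoters, and TGACNNNGC in 18.9%, against 13.0%. TGACTCA was in 5.13%, against 4.66%, and AGGTCA in 12.3%, against 14.7%. Of the 61 listed promoters of receptor genes, 6 held a peak midpoint. TGCTGA was in 4 of the 61 (6.56%), TGACNNNGC in 10 (16.4%), TGACTCA in 2 (3.28%) and AGGTCA in 11 (18.0%). Several promoters of 1 gene can overlap and share letters, so these are descriptions.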
